A study of Mus musculus with 42 samples.

Results

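The loci of Cdx1, Cdx2 and Cdx4 were examined in ChIP–seq peak lists of 3 factors, SOX2, β-catenin and LEF1. A peak belonged to a locus when it overlapped the gene extended by 20 kb on each side. In mm10 coordinates Cdx1 lies on chromosome 18 from 61018862 to 61036199 on the minus strand, Cdx2 on chromosome 5 from 147300805 to 147307270 on the minus strand, and Cdx4 on chromosome X from 103321398 to 103330592 on the plus strand. The windows held 1045 of the 9218878 peaks in the 30 lists, with 380 at Cdx1, 501 at Cdx2 and 164 at Cdx4. The cells were made in vitro from the mouse embryonic stem cell line HM1 (129). All of them received bFGF and LGK974, a blocker of WNT secretion, throughout, and were collected at 72 h. From 48 to 72 h CHIR99021, a GSK3 inhibitor that activates WNT signalling, was either added (CHIR) or left out (noCHIR). Wild-type cells (WT), cells mutant for Cdx1, Cdx2 and Cdx4 (CdxKO) and T/Bra-/- cells (T/BraKO) were profiled for each factor with CHIR. WT noCHIR was profiled for SOX2 only, which gave 10 groups of 3 biological replicates. Line and genotype cannot be told apart. The mutated bases are not given in the sources used here, and CdxKO libraries also list peaks with summits inside all 3 genes. Binding lists hold no expression values, so the cell type was not checked against marker genes.

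CDX1, CDX2 and CDX4 are homeodomain transcription factors of the posterior epiblast and tail bud, where WNT and FGF signalling switch them on and where they promote axial elongation and activate trunk Hox genes. β-catenin carries the WNT signal into the nucleus and reaches DNA through TCF/LEF proteins, of which LEF1 is a member. SOX2 maintains pluripotent and neural progenitor cells and is also made in the caudal epiblast. T/Bra is a T-box factor of the primitive streak and its mesoderm.

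The strongest SOX2 and β-catenin binding at Cdx2 lay in its intron 1, at 2 summit positions whose sequences are shown for that reason. They were read from GRCm38.p6 (mm10), 5′ to 3′ in the direction of Cdx2 transcription, with 100 bp on each side of the median summit. Capitals mark matches on either strand to the searched motifs, which were CTTTGAA or its variant CTTTGAT for TCF/LEF proteins, CCATTGT or its variant CCTTTGT for SOX proteins, and AGGTGTGA for T-box proteins. For CDX proteins the words were CCATAAA, then CAATAAA with a changed second letter, then TCATAAA with a changed first letter, then TAATAAA with both changed. CCTTTGT and the TCF/LEF words can share the letters CTTTG.
Cdx2 intron 1, +2.29 kb from the transcription start, chr5:147304877-147305077, minus strand: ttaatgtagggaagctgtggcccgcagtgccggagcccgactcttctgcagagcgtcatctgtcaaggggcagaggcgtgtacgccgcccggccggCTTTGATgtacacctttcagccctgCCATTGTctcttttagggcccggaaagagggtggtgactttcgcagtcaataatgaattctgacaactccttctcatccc
Cdx2 intron 1, +2.83 kb from the transcription start, chr5:147304338-147304538, minus strand: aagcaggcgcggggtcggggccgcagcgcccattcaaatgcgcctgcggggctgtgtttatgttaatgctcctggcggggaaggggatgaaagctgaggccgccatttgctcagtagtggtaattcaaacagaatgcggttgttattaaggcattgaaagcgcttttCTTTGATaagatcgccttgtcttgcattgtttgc
The +2.29 kb stretch held 1 TCF/LEF match at its centre and 1 SOX match 24 bp from it. The +2.83 kb stretch held 1 TCF/LEF match, 70 bp from its centre, and no match to the SOX words.

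The study placed a longer fragment of this intron in a fluorescent reporter, unchanged or with predicted SOX2 motifs altered. Only 399 bases of each version were used here. The unchanged bases matched GRCm38.p6 at every position of chr5:147304121-147304519 on the plus strand, a stretch that includes the +2.83 kb summit. The versions differed within it in 6 bases in 2 stretches, shown with the changed bases in capitals because they mark where the SOX2 motifs were altered.
stretch 1 unchanged, chr5:147304223-147304251, plus strand: ccgcaggctgactTTGttcaggtaaaaac
stretch 1 changed: ccgcaggctgactAACttcaggtaaaaac
stretch 2 unchanged, chr5:147304329-147304358, plus strand: aacacagtcgcaaACaAtgcaagacaaggc
stretch 2 changed: aacacagtcgcaaTGaTtgcaagacaaggc
Counted from 1 at the 5′ end of these bases, the changes were T116A, T117A and G118C in the first stretch and A222T, C223G and A225T in the second. The centre of the second stretch lay 94.5 bp from the median +2.83 kb summit, further into the gene. Its changed bases lie inside the +2.83 kb sequence shown above, near its end. The study thus altered a predicted SOX2 motif in that sequence, which the SOX words searched here did not match.

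A further Cdx2 site and 2 Cdx4 sites are shown because they differ in which factors reached them. The Cdx2 site lies at −8.52 kb, in intron 1 of the neighbouring gene Urad, and held peaks of all 3 factors. The Cdx4 sites lie in its intron 1 at +5.33 kb, with SOX2 and β-catenin peaks among the 20000 best of their lists, and between genes at +20.53 kb, with SOX2 peaks alone among them.
Cdx2 −8.52 kb, chr5:147315688-147315888, minus strand: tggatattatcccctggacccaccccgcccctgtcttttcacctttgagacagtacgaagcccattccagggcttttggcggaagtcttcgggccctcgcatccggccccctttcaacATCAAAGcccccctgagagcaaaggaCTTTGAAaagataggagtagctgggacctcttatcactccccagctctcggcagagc
Cdx4 +5.33 kb, chrX:103326631-103326831, plus strand: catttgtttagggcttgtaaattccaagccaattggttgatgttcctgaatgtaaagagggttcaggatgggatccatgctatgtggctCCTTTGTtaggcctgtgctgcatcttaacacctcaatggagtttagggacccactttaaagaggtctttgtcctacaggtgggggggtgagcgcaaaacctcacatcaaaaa
Cdx4 +20.53 kb, chrX:103341827-103342027, plus strand: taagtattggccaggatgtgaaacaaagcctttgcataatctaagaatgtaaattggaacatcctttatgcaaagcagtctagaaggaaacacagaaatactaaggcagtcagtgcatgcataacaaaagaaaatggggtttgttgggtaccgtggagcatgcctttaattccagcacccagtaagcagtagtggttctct
The Cdx2 −8.52 kb stretch held 2 TCF/LEF matches, 21 and 47 bp from its centre. The Cdx4 intron stretch held 1 SOX match and no TCF/LEF match, and the +20.53 kb stretch held no match to the searched words.

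Each list gives for every peak the fold enrichment at its summit over local background and a −log10 q. Peaks were ranked within their list by −log10 q, so that rank 1 is the strongest, and the best-ranked peak of a window was taken as its level in that library. The lists held 26940 to 1008922 peaks and read depth is unknown, so sites were defined from the 20000 best peaks of each list. The peak of rank 20000 had a fold enrichment of 4.40 to 9.75. Summits of these peaks that lay within 200 bp of each other formed 52 clusters at the 3 loci. Of these, 13 were reached by 2 or more replicates of some group and are called sites here, 3 at Cdx1, 7 at Cdx2 and 3 at Cdx4, each named by its distance from the transcription start.

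**Figure D1:**
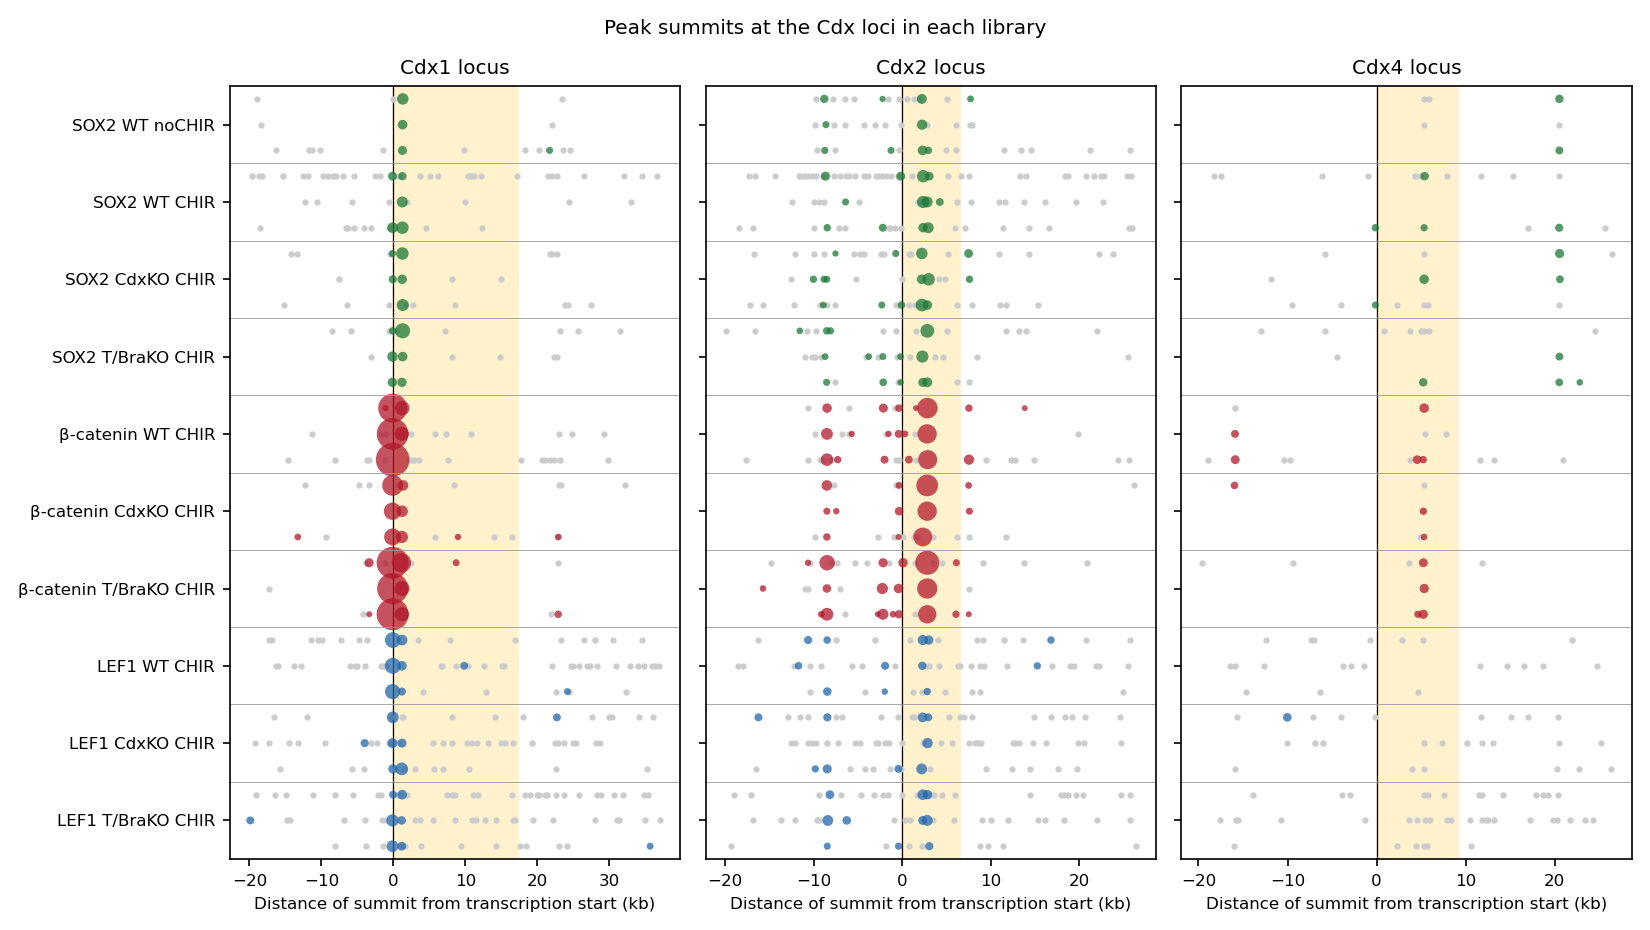
Summits of all peaks at the 3 loci, with distance from the transcription start in kb on the x axis (positive into the gene, gene body shaded) and the 30 libraries in rows, 3 per group. Coloured points (green SOX2, red β-catenin, blue LEF1) are among the 20000 best peaks of their list, with area proportional to fold enrichment, and grey points are weaker peaks. Binding stacked at the Cdx1 start and at +1.22 kb, and at +2.29 and +2.83 kb of Cdx2, while Cdx4 held 27 of the 228 coloured peaks.

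Merging the 20000 best peaks of all lists gave 336403 regions across the genome, of which 44 touched the 3 windows. Only 83 of the 336403 (0.0247%) were called in all 30 libraries, and 2 of these were Cdx regions. The first spans the Cdx1 start and the beginning of its intron 1, from 61034350 to 61037049. The second is the Cdx2 intron 1 element, from 147303643 to 147305500. Both were thus listed for SOX2 without CHIR and for all 3 factors in both mutants. At Cdx4 the most often called region, in intron 1, was reached in 11 libraries. When the 5000 best peaks were used instead, 37 regions were called in all libraries, 2 of them at the Cdx loci. With the full lists 521 were, 3 of them at the Cdx loci, the added one being the Urad intron region upstream of Cdx2, from 147315333 to 147316577. Within the 9 CHIR libraries of SOX2, 1.48% of its regions were called in all, 2 of them at the Cdx loci. The share was 3.08% with 3 Cdx regions for β-catenin, and 0.143% with 2 Cdx regions for LEF1.

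In WT cells with CHIR the order of the loci was Cdx1, Cdx2, Cdx4 for β-catenin and LEF1. The best Cdx1 peak of β-catenin ranked 22, 10 and 21 in replicates 1, 2 and 3, the best Cdx2 peak 163, 253 and 325, and the best Cdx4 peak 2661, 4971 and 5944. Among 21938 protein-coding genes with windows built in the same way, Cdx1 held place 14 to 25 for β-catenin and 32 to 60 for LEF1. The best LEF1 peak ranked 61, 52 and 38 at Cdx1, 572, 4719 and 565 at Cdx2 and 154219, 55769 and 59110 at Cdx4. No 2 loci overlapped for either factor. For SOX2, Cdx1 ranked 2212, 339 and 500 and Cdx2 ranked 597, 292 and 1137, which overlapped. Cdx4 ranked 13324 and 5830 in replicates 1 and 3, and replicate 2 listed no peak there among its 289925 peaks.

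**Figure D2:**
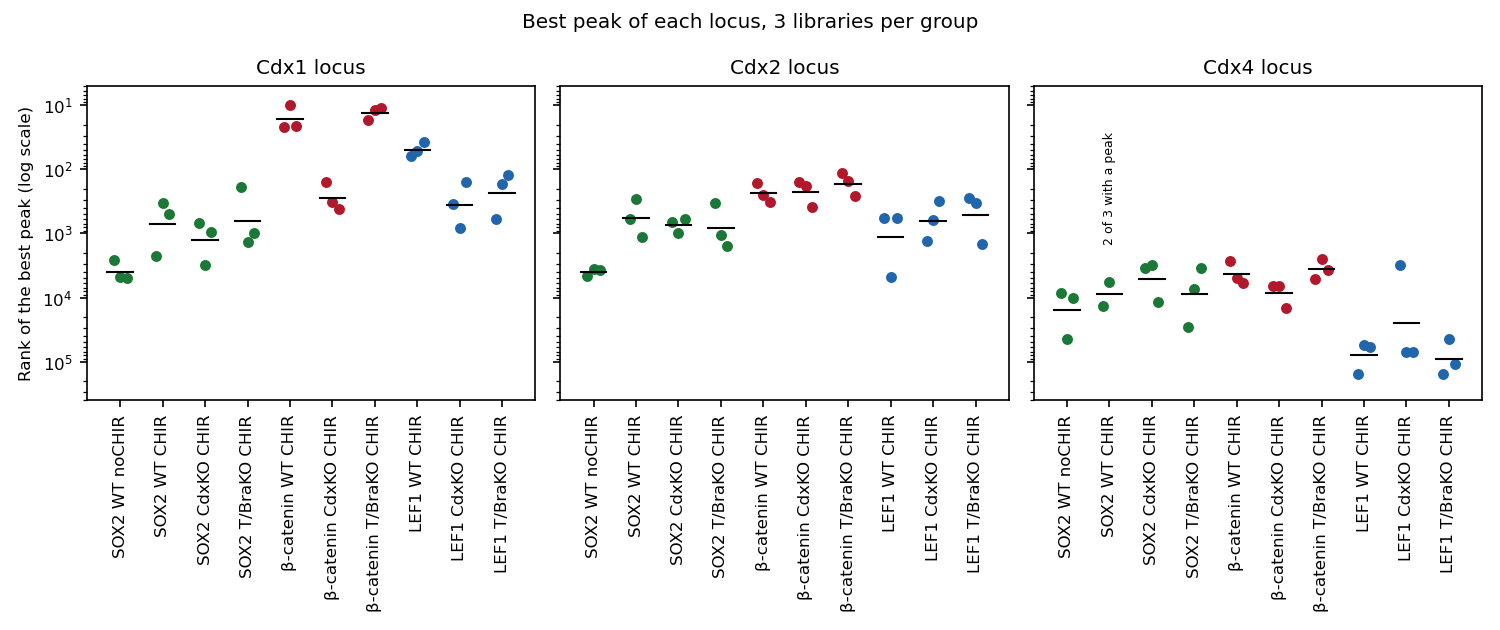
Rank of the best peak at each locus in its own list, on a log axis with strong peaks at the top, 1 point per library and a line at the geometric mean of the libraries with a peak. At Cdx1 the β-catenin libraries of WT and T/BraKO sit between rank 10 and 22 and those of CdxKO between 159 and 415, while at Cdx2 the 3 genotypes overlap and the SOX2 noCHIR libraries lie below the other SOX2 groups.

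WT was compared with CdxKO to see where binding differed in cells without intact Cdx genes. β-catenin binding at the Cdx1 start was lower in CdxKO by value, at a site that was not tested on its own. The site has its median summit 108 bp upstream of the transcription start, and its fold enrichment was 121, 144 and 163 in WT and 62.1, 43.5 and 41.4 in CdxKO. The means were 142 ± 20.9 and 49.01 ± 11.4 (SD, n = 3), 2.90 times higher in WT. All WT values lay above all CdxKO values, and the share of sites with this pattern was not counted. In log2 fold enrichment the test of the best peak at the locus did not pass, as given below. In T/BraKO the fold enrichment was 146, 139 and 147, with a mean of 144 ± 4.37 (SD, n = 3), inside the WT range.

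In ranks, the best Cdx1 peak went from 22, 10 and 21 in WT to 159, 325 and 415 in CdxKO, with geometric means of 16.7 and 278. The difference in −log2 rank, in which 1 unit is a 2-fold difference in rank and a positive value means stronger in WT, was 4.06 ± 0.52 (SE, limma, adjusted p = 8.6e-07). Over all windows 0.5% were called in either direction and 0.432% as stronger in WT, and in 6.26% of genes every WT library ranked above every CdxKO library, as at Cdx1. The exact permutation p was 0.1, the smallest that 3 against 3 libraries allow. The call was lost with ranks beyond 20000 set aside (adjusted p = 0.076), with ranks divided by list length (adjusted p = 0.12) and with log2 fold enrichment in place of rank (difference 1.43, adjusted p = 0.98), with WT still the stronger in each.

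WT and T/BraKO were not separated at Cdx1 for β-catenin. The T/BraKO ranks were 17, 12 and 11, and WT minus T/BraKO was −0.35 (95% interval −1.38 to 0.69, limma adjusted p = 0.94, 1.86% of windows called). The mutants did differ from each other. T/BraKO minus CdxKO was 4.41 ± 0.52 (SE, limma, adjusted p = 1.8e-08, 3.55% of windows called), in a contrast chosen after the data were seen. No alternative setting was run for this contrast.

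LEF1 at the Cdx1 start was also lower in both mutants by value, in a site that was not tested on its own. Its fold enrichment was 35.4, 36.6 and 33.2 in WT, 20.2, 14.3 and 12.6 in CdxKO and 8.89, 21.6 and 20.2 in T/BraKO. Every mutant library lay below every WT library. The best LEF1 peak of the locus ranked 61, 52 and 38 in WT, 353, 828 and 155 in CdxKO and 585, 172 and 122 in T/BraKO, again without overlap between WT and either mutant, as in 5.07% and 5.25% of genes. That best peak was at the start in all but 2 libraries. In CdxKO replicate 3 and T/BraKO replicate 1 it was the intron 1 peak, and their start peaks ranked 565 and 12700. The difference in this best peak did not pass the test. It was 2.85 for WT minus CdxKO (95% interval 0.33 to 5.37, limma adjusted p = 0.996, exact p = 0.1). For WT minus T/BraKO it was 2.22 (−0.30 to 4.74, adjusted p = 0.97, exact p = 0.1). Over all windows limma called 0% for LEF1 in WT against CdxKO, with 1053 windows at an unadjusted p under 0.05, and 0.0278% in WT against T/BraKO.

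The intron 1 site of Cdx1, 1217 bp after the start, was the best SOX2 site of the locus and was reached in all 12 SOX2 libraries. Its SOX2 fold enrichment was 19.2, 13.3 and 11.8 in WT noCHIR, 10.1, 17.6 and 22.5 in WT CHIR, 22.5, 13.1 and 20.98 in CdxKO and 32.98, 13.3 and 12.5 in T/BraKO. The 4 groups overlapped. Around this summit there were 3 SOX matches and 1 TCF/LEF match, while 23.8% of the SOX2 summits among the 20000 best peaks had at least 1 SOX match. Around the start site there were 2 TCF/LEF matches and no SOX match, and 29.6% of β-catenin summits had at least 1 TCF/LEF match.

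β-catenin at the intron site was lowest in CdxKO by value, in a site that was not tested on its own. It lies in the same merged region as the start site, so the 2 are not independent. Its fold enrichment was 30.8 and 29.2 in WT replicates 1 and 2, while in replicate 3 a peak with its summit at the start covered the site. It was 16.1, 18.96 and 21.6 in CdxKO and 54.1, 32.4 and 29.4 in T/BraKO. All CdxKO values lay below the others, and the share of sites with this pattern was not counted. LEF1 there was 16.4, 13.4 and 9.44 in WT, 8.12, 11.5 and 23.2 in CdxKO and 13.6, 10.7 and 11.1 in T/BraKO, and these overlapped. The remaining Cdx1 site, at −3.36 kb, was among the 20000 best peaks only for β-catenin in T/BraKO replicates 1 and 3.

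At the Cdx1 start SOX2 was listed in fewer libraries and ranked below the intron site in each of them. It was among the 20000 best peaks in 2 of 3 WT CHIR, 2 of 3 CdxKO and 3 of 3 T/BraKO libraries, with fold enrichment from 7.37 to 16.5. Without CHIR a summit was present in replicate 1 alone, at rank 21020 and a fold enrichment of 6.39. For the locus as a whole the best SOX2 peak ranked 2577, 4829 and 4919 in noCHIR and 2212, 339 and 500 with CHIR. Every CHIR library ranked above every noCHIR library, as in 10.4% of genes, and the difference was 2.45 ± 0.89 (SE, limma, adjusted p = 0.13, 3.72% of windows called, median over all windows 0.18). The adjusted p was 0.029 without WT CHIR replicate 1 and 0.024 with ranks divided by list length, and in log2 fold enrichment the difference was −0.088. SOX2 at Cdx1 was not separated between WT and CdxKO (0.81, 95% interval −1.003 to 2.63, limma adjusted p = 0.8, 0.146% of windows called) or between WT and T/BraKO (−0.18, −1.99 to 1.63, adjusted p = 0.97, 0.0423% called, median over all windows −0.10).

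**Figure D3:**
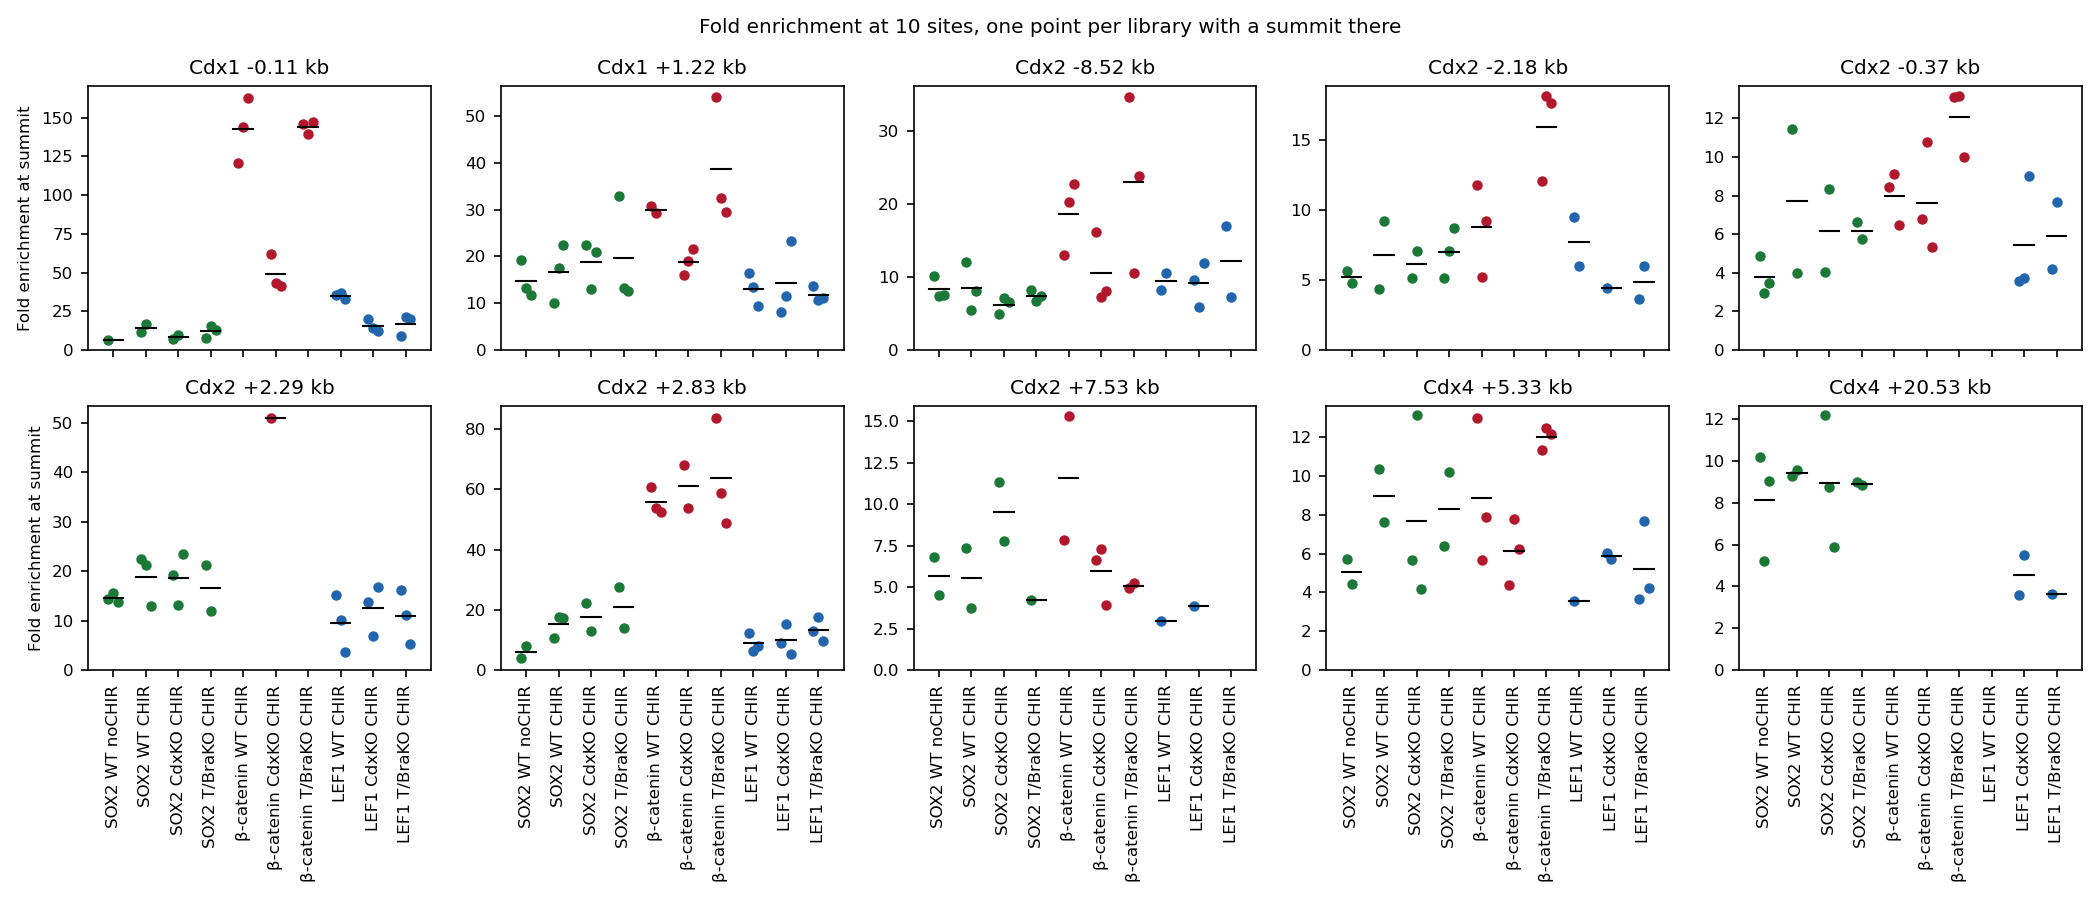
Fold enrichment at the summit for the 10 sites reached in more than 5 libraries, named by gene and distance from its transcription start in kb, with 1 point per library that has a summit there and a line at their mean. At the Cdx1 start the β-catenin values of CdxKO (41.4 to 62.1) lie below those of WT and T/BraKO (120.8 to 162.5), and at Cdx2 +2.83 kb the 3 genotypes overlap. Libraries whose peak covers a site with its summit elsewhere have no point.

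Binding at Cdx2 was led by intron 1, which runs from 147303327 to 147306444. No difference in β-catenin between genotypes was found there. The best peak ranked 163, 253 and 325 in WT, 156, 184 and 392 in CdxKO and 116, 154 and 263 in T/BraKO, and the genotypes overlapped. Its fold enrichment was 60.6, 53.9 and 52.3 in WT, 68.1, 53.9 and 50.96 in CdxKO and 83.6, 58.8 and 48.8 in T/BraKO. WT minus CdxKO was −0.084 (95% interval −1.22 to 1.05, limma adjusted p = 0.987), an interval that does not reach the 4.06 measured at Cdx1. WT minus T/BraKO was −0.50 (−1.64 to 0.63, adjusted p = 0.92). Set against each other within a library, the −log2 rank of Cdx1 was above that of Cdx2 by 3.83 ± 0.89 (SD, n = 3) in WT and by 3.68 ± 0.90 in T/BraKO. In CdxKO this value was −0.31 ± 0.44 (exact two-sided permutation p = 0.1 against WT, the smallest possible). The pair was chosen after the data were seen, and no other pairs of genes were compared in this way.

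The β-catenin summit lay at +2.83 kb in 8 of 9 libraries and at +2.29 kb in CdxKO replicate 3. SOX2 had summits at both positions. At +2.29 kb its fold enrichment was 14.3, 15.5 and 13.8 in WT noCHIR and 22.4, 21.2 and 12.9 in WT CHIR, which overlapped. At +2.83 kb it was 10.7, 17.5 and 17.4 in WT CHIR, at ranks 9970, 446 and 1137. In noCHIR it was 4.05 and 7.93 in replicates 2 and 3, at ranks 46618 and 10911, below all CHIR values. In noCHIR replicate 1 a peak with its summit elsewhere covered the position. The median +2.83 kb summit lies within the 399 reporter bases used here, and the +2.29 kb summit lies outside them. By the study's account the longer fragment takes in the SOX2 peaks of this intron. Its bases beyond the 399 used here were not checked.

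The SOX2 peak in Cdx2 intron 1 ranked higher with CHIR. It ranked 4566, 3621 and 3662 in noCHIR and 597, 292 and 1137 with CHIR. Every CHIR library ranked above every noCHIR library, as in 10.4% of genes. The difference was 2.75 ± 0.81 (SE, limma, adjusted p = 0.049), and 1.26% of windows were called as stronger with CHIR. The exact permutation p was 0.1, the smallest possible. The call was lost on leaving out WT CHIR replicate 1 (0.061) or 2 (0.15) or noCHIR replicate 1 (0.17), 2 (0.14) or 3 (0.13; limma adjusted p in each). It was also lost with the 20000 best peaks (limma adjusted p = 0.059), no filter on windows (0.051) and peaks ranked by fold enrichment (0.12). The same held in log2 fold enrichment (difference 0.25, limma adjusted p = 0.69). With 10 kb windows, which apply to the Cdx2 locus and not to the intron, the call at the locus was lost (limma adjusted p = 0.065).

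With CHIR, SOX2 at Cdx2 ranked 669, 975 and 591 in CdxKO and 329, 1076 and 1596 in T/BraKO, overlapping WT. WT minus CdxKO was 0.32 (95% interval −1.33 to 1.97, limma adjusted p = 0.93) and WT minus T/BraKO was 0.50 (−1.15 to 2.16, adjusted p = 0.89). LEF1 in intron 1 ranked 572, 4719 and 1666 in WT, 1304, 621 and 315 in CdxKO and 279, 331 and 1440 in T/BraKO, and the genotypes overlapped. In WT replicate 3 the best LEF1 peak of the whole Cdx2 window, at rank 565, was instead at −8.52 kb. The LEF1 differences in intron 1 were −1.38 (−4.20 to 1.44) for WT minus CdxKO and −1.69 (−4.52 to 1.13) for WT minus T/BraKO, with limma adjusted p of 0.996 and 0.97. For the whole window they were −0.86 and −1.17.

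The Cdx2 site at −8.52 kb was among the 20000 best peaks in 25 libraries, all 9 of β-catenin, 10 of 12 of SOX2 and 6 of 9 of LEF1. β-catenin fold enrichment there was 13.02, 20.3 and 22.7 in WT, 16.2, 7.23 and 8.09 in CdxKO and 34.6, 10.6 and 23.8 in T/BraKO, and the genotypes overlapped. At −2.18 kb, a stretch between genes with 2 CDX matches and 1 TCF/LEF match, β-catenin was 11.8, 5.21 and 9.24 in WT and 12.1, 18.1 and 17.6 in T/BraKO, and no CdxKO list of β-catenin held a summit there. The WT replicate 2 peak ranked 34709. This site was not tested on its own, because it was found with the peaks themselves. The share of sites with such a pattern was not counted. At +7.53 kb, which also held a CDX match, β-catenin summits were listed in 2 WT and 3 CdxKO libraries. At Cdx1 −3.36 kb, the remaining site with CDX matches, they were listed in 1 WT and 1 CdxKO library. At −0.37 kb β-catenin was among the 20000 best in 8 of 9 libraries, with fold enrichment from 5.36 to 13.2. The sites at +6.09 kb, in exon 3, and at +7.53 kb, past the gene end, were reached in 2 and 8 libraries.

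**Figure D4:**
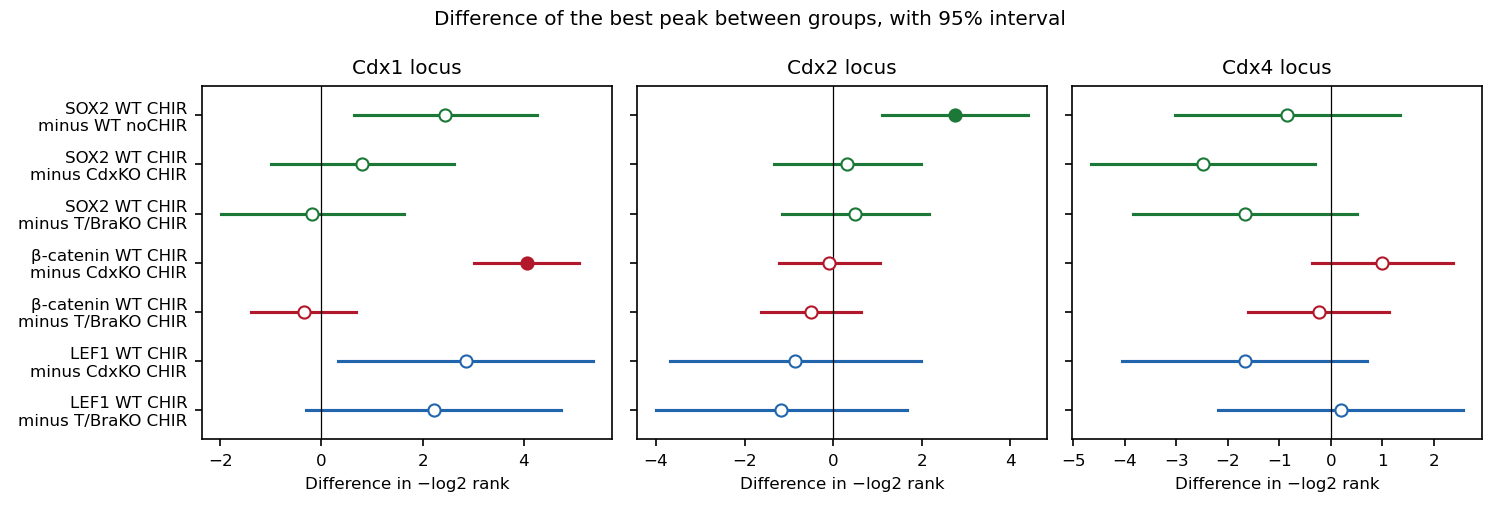
Difference in −log2 rank of the best peak for the 7 comparisons at each locus, WT with CHIR first in each, with the limma 95% interval as a bar and a filled point where the adjusted p was under 0.05. The filled points are β-catenin WT minus CdxKO at Cdx1 (4.06) and SOX2 WT CHIR minus WT noCHIR at Cdx2 (2.75).

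Cdx4 was the most weakly bound of the 3 loci for β-catenin and LEF1, and no comparison with WT passed the test there. β-catenin had a summit at +5.33 kb in all 9 libraries, 7 of them among the 20000 best. Its fold enrichment was 12.98, 5.65 and 7.87 in WT, 4.37, 7.75 and 6.22 in CdxKO and 11.3, 12.5 and 12.2 in T/BraKO, with WT overlapping both mutants. The best β-catenin peak of the locus ranked 2661, 4971 and 5944 in WT, 6505, 6607 and 14754 in CdxKO and 5110, 2541 and 3724 in T/BraKO. These best peaks were at different sites, at −15.89 kb in WT replicates 2 and 3 and CdxKO replicate 1 and at +5.33 kb in the other libraries. So taken, all CdxKO libraries ranked below all WT libraries, as in 6.26% of genes, while at +5.33 kb alone WT (2661, 24377 and 12649) and CdxKO (59017, 6607 and 14754) overlapped. The difference in the best peak was 1.004 (95% interval −0.37 to 2.37, limma adjusted p = 0.8). WT minus T/BraKO was −0.23 (−1.60 to 1.14, adjusted p = 0.98). A distal β-catenin site at −15.89 kb lay in intron 1 of 4930519F16Rik. It was among the 20000 best in WT replicates 2 and 3 and CdxKO replicate 1. No T/BraKO list of β-catenin held a summit there, and the site was not tested on its own.

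SOX2 reached Cdx4 at the same intron site and at +20.53 kb. At +20.53 kb its fold enrichment was 10.2, 5.22 and 9.03 in noCHIR, 9.27 and 9.56 in WT CHIR replicates 1 and 3, 12.2, 8.74 and 5.88 in CdxKO and 8.99 and 8.83 in T/BraKO replicates 2 and 3. The groups overlapped, and none of the 9 β-catenin lists held a summit there. The best SOX2 peak of the locus ranked 8609, 44276 and 10275 in noCHIR, 3509, 3156 and 11669 in CdxKO and 28688, 7301 and 3406 in T/BraKO. WT CHIR replicate 2, with no peak, was given the rank after the last of its list.

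With that value, SOX2 WT CHIR minus noCHIR at Cdx4 was −0.84 (95% interval −3.02 to 1.34, limma adjusted p = 0.76), WT minus CdxKO −2.48 (−4.66 to −0.30, adjusted p = 0.38) and WT minus T/BraKO −1.66 (−3.84 to 0.52, adjusted p = 0.67). Without that replicate the same differences were 0.84, −0.80 and 0.020. LEF1 placed CdxKO replicate 1 alone among the 20000 best at Cdx4, at rank 3123. Its differences were −1.67 (−4.05 to 0.71, limma adjusted p = 0.996) for WT minus CdxKO and 0.20 (−2.18 to 2.57, adjusted p = 0.997) for WT minus T/BraKO.

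Of the 13 sites, 7 held a TCF/LEF match within 100 bp of the median summit, 3 a SOX match, 3 a CDX match and 0 a T-box match. Over all summits of the 20000 best peaks in the 30 lists the shares with a match were 19.2%, 15.8%, 12.996% and 1.12%. These pooled shares differ by factor. For TCF/LEF the share was 11.7% of SOX2, 29.6% of β-catenin and 18.9% of LEF1 summits. For SOX it was 23.8%, 12.2% and 8.71% in the same order. The CDX matches were at Cdx1 −3.36 kb and at Cdx2 −2.18 and +7.53 kb. No match at a site says only that these letters are not in its window.

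The windows also touch other annotated genes. At Cdx1 these are Slc6a7, a proline transporter gene, and Pdgfrb, a growth factor receptor gene. At Cdx2 they are Urad, Gm27033, Mir7k and Gm29778, and at Cdx4 4930519F16Rik, Gm3931 and Gm9516. Of the 13 sites, only Cdx2 −8.52 kb and Cdx4 −15.89 kb fell inside one of them. Over the 30 libraries the −log2 ranks most like those of Cdx1 were, of 7650 genes with a peak in every list, at Vsig8 (Pearson r = 0.85), 2510009E07Rik (0.85) and Cfap45 (0.84). Those most like Cdx2 were at Cdc6 (0.83), Cited2 (0.83) and Trpm8 (0.78), and those most like Cdx4 at Ramp2 (0.83), Mrfap1 (0.82) and Pycr1 (0.79). The libraries of a factor share an antibody, and libraries differ in list length, so these values are a description.

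The loci were set beside 29 other genes of the caudal epiblast and tail bud, all of which were tested. For SOX2 with CHIR against noCHIR 9 passed, all stronger with CHIR (1.26% of all windows), and the median difference of the list was 1.92 against 0.18 over all windows. They include the Hox genes Hoxb1 (geometric mean rank 31.5 against 772, difference 4.61, adjusted p = 0.0031) and Hoxa5 (difference 4.53, adjusted p = 0.0011), the WNT target Sp5 (difference 4.03, adjusted p = 0.0021) and the caudal progenitor gene Nkx1-2 (difference 3.59, adjusted p = 0.0078), by limma. These 4 were named because their differences were the largest of the 9 that passed. The Cdx2 difference of 2.75 lay below them and above the list median of 1.92.

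For β-catenin in WT against CdxKO 5 of the 29 passed, all stronger in WT (0.432% of all windows), with a list median of 0.65 against 0.00023 over all windows. The largest were at Hoxa5 (geometric mean rank 356 against 12082, difference 5.09, adjusted p = 8.6e-07), at Hoxb7 and Hoxb8 (difference 3.37, adjusted p = 0.0019 for each, from the same values) and at Hoxa7 (difference 2.77, adjusted p = 0.034), by limma. The Cdx1 difference of 4.06 lay between those of Hoxa5 and Hoxb7. For β-catenin in WT against T/BraKO 5 passed, all stronger in WT (1.64% of all windows), although the list median was −0.05. They were led by the mesoderm genes Msgn1 (difference 4.43, adjusted p = 3.9e-05) and Tbx6 (difference 3.61, adjusted p = 0.00065), the WNT agonist gene Rspo3 (difference 4.36, adjusted p = 8.7e-05) and the ligand gene Wnt3a (difference 2.97, adjusted p = 0.0047), by limma, and no Cdx locus was called in that comparison. For SOX2 in WT against CdxKO, Hoxa5 (difference 4.32, adjusted p = 0.016) and Nkx1-2 (difference 3.84, adjusted p = 0.033) passed by limma, both stronger in WT (0.0846% of all windows). None of the 29 passed by limma for SOX2 against T/BraKO or in either LEF1 comparison.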

How the data were processed

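The ChIP–seq libraries were sequenced by the authors as single-end 76 bp reads, aligned to mm10 with BWA in the nf-core/chipseq pipeline, filtered, and peaks were called with MACS2 in each library. Which input served as control is not given in the sources used here, and the 12 inputs were not analysed. The deposited ratio is the fold enrichment at the summit, and the deposited −log10 p and −log10 q belong to the same summit. The deposited score was not used, and the deposited summit offset gave positions.

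Ranks followed −log10 q, with ties broken first by −log10 p and next by fold enrichment. The best rank in each of 21938 protein-coding windows (GENCODE annotation, gene extended by 20 kb) and in Cdx2 intron 1 was compared as −log2 rank with limma 3.58.1 (R 4.3.3, trended eBayes), all groups of a factor in one fit, for windows with a peak in at least 3 libraries of the factor. Adjusted p-values are Benjamini-Hochberg over all windows, with a threshold of 0.05. A library without a peak took the rank after its last peak. Exact two-sided permutation tests cannot go below 0.1 here. Scripts (Python 3.11.15, pandas 2.3.3) were tested on simulated data. Replicate lists shared at most 0.0186% of identical peaks. Read depth is unknown, so no counting intervals are given. Alternatives changed the ranking, window, filter, scale, replicate block and libraries.

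Named genes are the Cdx genes, genes overlapping their windows, the 3 most alike windows per locus, and at most 4 genes of the caudal list per comparison, those that passed with the largest difference. The members and lists were chosen with earlier results of these data known. Sites, the contrast between mutants and the setting of Cdx1 against Cdx2 were chosen after the data were seen.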

Additional observations from a re-analysis of the deposited data

Results flagged for a closer look

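At the Cdx1 locus the effects of the mutants on β-catenin differed from each other. WT minus CdxKO was 4.06 and WT minus T/BraKO was −0.35 in −log2 rank, and the test of their difference, T/BraKO minus CdxKO, gave 4.41 (95% interval 3.37 to 5.45, limma adjusted p = 1.8e-08, 740 of 20820 windows called). All 3 T/BraKO libraries ranked above all 3 CdxKO libraries (exact permutation p = 0.1, the smallest possible). The share of genes that separate in this way was not counted, and the contrast was chosen after the data were seen.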

How the results depend on the processing

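The alternatives were to rank by fold enrichment, keep the 20000 best peaks, use 10 kb windows and require the summit to lie in the window. Others were to compare log2 fold enrichment or ranks divided by list length, test windows without a filter and add a replicate block. Each library was also left out, and, chosen after the data were seen, 1 kb around the transcription start was used. Of 405 values in 28 results, 337 kept direction and side of the threshold and 43 changed sign, of which 0 passed the threshold. The cause was not tested. The 28 results count the Cdx2 locus and its intron 1 apart, although for SOX2 and β-catenin their best peaks were the same. Read depth is unknown and limits every comparison of list lengths. The values that crossed the threshold or changed sign follow for each setting. Ranked by fold enrichment, they were SOX2 CHIR minus noCHIR 2.71 at Cdx2 and 2.71 at intron 1, SOX2 WT minus CdxKO −0.0036 at Cdx1. With the 20000 best peaks, they were SOX2 CHIR minus noCHIR 2.75 at Cdx2, 0.062 at Cdx4 and 2.75 at intron 1, β-catenin WT minus CdxKO 4.06 at Cdx1. With 10 kb windows, they were SOX2 CHIR minus noCHIR 2.75 at Cdx2 and 1.39 at Cdx4. In log2 fold enrichment, they were SOX2 CHIR minus noCHIR −0.088 at Cdx1, 0.25 at Cdx2 and 0.25 at intron 1, SOX2 WT minus CdxKO −0.46 at Cdx1, −0.34 at Cdx2 and −0.34 at intron 1, SOX2 WT minus T/BraKO −0.42 at Cdx2 and −0.42 at intron 1, β-catenin WT minus CdxKO 1.43 at Cdx1. With ranks divided by list length, they were SOX2 CHIR minus noCHIR 4.24 at Cdx1 and 0.95 at Cdx4, SOX2 WT minus T/BraKO 1.93 at Cdx1 and 0.45 at Cdx4, β-catenin WT minus CdxKO 4.74 at Cdx1, 0.60 at Cdx2 and 0.60 at intron 1, β-catenin WT minus T/BraKO 0.56 at Cdx1, 0.41 at Cdx2, 0.68 at Cdx4 and 0.41 at intron 1, LEF1 WT minus T/BraKO −0.31 at Cdx4. Without the filter, they were SOX2 CHIR minus noCHIR 2.75 at Cdx2 and 2.75 at intron 1. Within 1 kb of the transcription start, they were SOX2 CHIR minus noCHIR 0.64 at Cdx2 and 0.48 at Cdx4, SOX2 WT minus CdxKO −1.52 at Cdx2, SOX2 WT minus T/BraKO −0.90 at Cdx2, β-catenin WT minus CdxKO 0.60 at Cdx2 and −0.68 at Cdx4, LEF1 WT minus CdxKO 0.10 at Cdx4. Leaving out 1 library gave 1.91 to 3.26 for SOX2 CHIR minus noCHIR at Cdx1, 2.25 to 3.23 for SOX2 CHIR minus noCHIR at Cdx2, −1.98 to 0.84 for SOX2 CHIR minus noCHIR at Cdx4, 2.25 to 3.23 for SOX2 CHIR minus noCHIR at intron 1, −0.18 to 0.80 for SOX2 WT minus CdxKO at Cdx2, −0.18 to 0.80 for SOX2 WT minus CdxKO at intron 1, −0.74 to 0.69 for SOX2 WT minus T/BraKO at Cdx1, −2.80 to 0.020 for SOX2 WT minus T/BraKO at Cdx4, −0.49 to 0.18 for β-catenin WT minus CdxKO at Cdx2, −0.49 to 0.18 for β-catenin WT minus CdxKO at intron 1, −0.58 to 0.026 for β-catenin WT minus T/BraKO at Cdx4, −1.38 to 0.16 for LEF1 WT minus CdxKO at Cdx2, −0.20 to 0.72 for LEF1 WT minus T/BraKO at Cdx4.

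Replicate numbers were not taken to pair the samples, since over 36 same-numbered pairs the correlations of deviations ran from −0.044 to 0.079, with 0 over 0.1. As a hint from the data, the same number was the best partner in 19 of the 36, including all 9 pairs of CdxKO with T/BraKO. The contrast of T/BraKO with CdxKO was fitted without a replicate block all the same. With the replicate block no call changed, and the limma adjusted p was 0.042 for SOX2 at Cdx2 (2.75) and 4.5e-10 for β-catenin at Cdx1 (4.06). LEF1 at Cdx4 in WT against T/BraKO had no value with the 20000 best peaks, since neither group had one there. With full lists 5 β-catenin regions at the Cdx loci were called in all 9 libraries, against 3.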
